A study of Arabidopsis thaliana with 28 samples.

Results

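The genes described here rose in both organs of the Arabidopsis seedling between 0.25 h and 3 h after a pulse of UV-B. A probe set, the group of array probes that reports 1 transcript, was taken when its mean log2(signal + 10) was at least 1 higher, a doubling on that scale, at 3 h than at 0.25 h in shoots and also in roots. Of 22746 probe sets other than array controls, 102 met this rule. The rule also leaves out 15 gene names, and 7 of the 102 carried one of them, which left 95 members. Among the 15 names are NDB2, NDB4, UGT73B4, UGT73B5, UGT84A1 and GSTU25. These genes could not be members whatever their signals, so their absence is not a result. Of the 15 names, 8 were not among the 102. Of the 95, 33 match 1 gene in the platform's annotation, 4 match several related genes and 58 have no gene name here and are given by counts and ranges. The members were thus chosen by the measured signals at 0.25 h and 3 h, so values at those times are a description and carry no test. The tests compare 1, 6, 12 and 24 h with 0.5 h, and the differences tested use no array that chose the members. The spread between arrays was estimated over all 28 arrays, those at 0.25 h and 3 h included.

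All plants were of the Col-0 accession, grown on Murashige and Skoog medium in a growth room with 16 h days, a temperature given as 24 and 50% humidity. On day 16, after 3 h of light, every plant received 15 min of UV-B at 1.18 W/m2 from fluorescent tubes, so all groups carry the exposure and no unexposed plants are analysed here. Shoots and roots were collected at 0.25, 0.5, 1, 3, 6, 12 and 24 h, with 2 arrays in each of the 14 groups and 28 arrays in all. The labels do not say whether the 2 arrays came from separate plants or pools, so the p-values measure the spread between arrays, which may be technical. They also do not say at which moment of the pulse the clock was started. The 3, 6 and 12 h samples were taken at a later hour of the day than those at 0.25 and 0.5 h. Hour of day and time since exposure cannot be told apart in them. This holds also for the 3 h rise that chose the members. The 24 h samples were taken at nearly the same hour as the 0.5 h samples.

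UV-B is absorbed by DNA, proteins and other aromatic molecules, and plants meet it with repair, with screening pigments and with general stress responses. Among the general responses, chaperones refold damaged proteins, efflux carriers and conjugating enzymes remove reactive or foreign molecules, and fermentation and glycolytic enzymes supply energy when respiration is limited. Many plant transcripts also follow the hour of day, and GI is a component of the circadian clock.

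The organs could be told apart on every array. Summed signals of 4 shoot markers, of 12 listed, were 12147 to 23723 on shoot arrays and 252 to 509 on root arrays. Those of 3 root markers, of 10 listed, were 3235 to 4015 on root arrays and 297 to 1488 on shoot arrays. The highest root marker sum in shoots was that of 1 of the arrays at 0.5 h, the time the tests compare with, where the sums were 585 and 1488. The 2% trimmed mean, the average signal after the extremes are dropped, was the same, to within rounding, on all arrays. The log2 signals of the 2 arrays of a group correlated with Pearson's r between 0.983 and 0.995 over all probe sets. At 0.5 h, 43 of 95 members lay at or below the array median on both shoot arrays, and 30 on both root arrays. The median splits the probe sets of an array evenly, so these counts do not mark the members as dimmer than the rest. The same count was not made over all probe sets. The added 10 compresses low signals. The number of arrays limits the precision, since each group mean rests on 2.

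The rise that defined the members was larger in shoots, where more probe sets of the whole array also rose. Of all 22746, 1047 rose by at least 1 in shoots and 268 in roots. Between 0.25 h and 3 h the mean log2 values of the 95 members were higher by 1.02 to 6.55 in shoots, with a median of 2.34, and by 1.002 to 4.52 in roots, with a median of 1.47. The rise was the larger one in shoots for 76 members and in roots for 19. It reached 2 or more in both organs for 14 members, and 3 or more in shoots for 29 and in roots for 5. The highest rise in shoots was that of a probe set with no gene name, at 6.55 in shoots and 4.52 in roots. Just inside the threshold were ChiC (1.07 in shoots, 1.01 in roots) and 2 probe sets with no gene name (1.88 and 1.002, 3.56 and 1.01). Just outside it were a probe set with no gene name (1.46 and 0.997), AT3G09440 (2.01 and 0.996) and psaC (0.987 and 1.40).

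**Figure D1:**
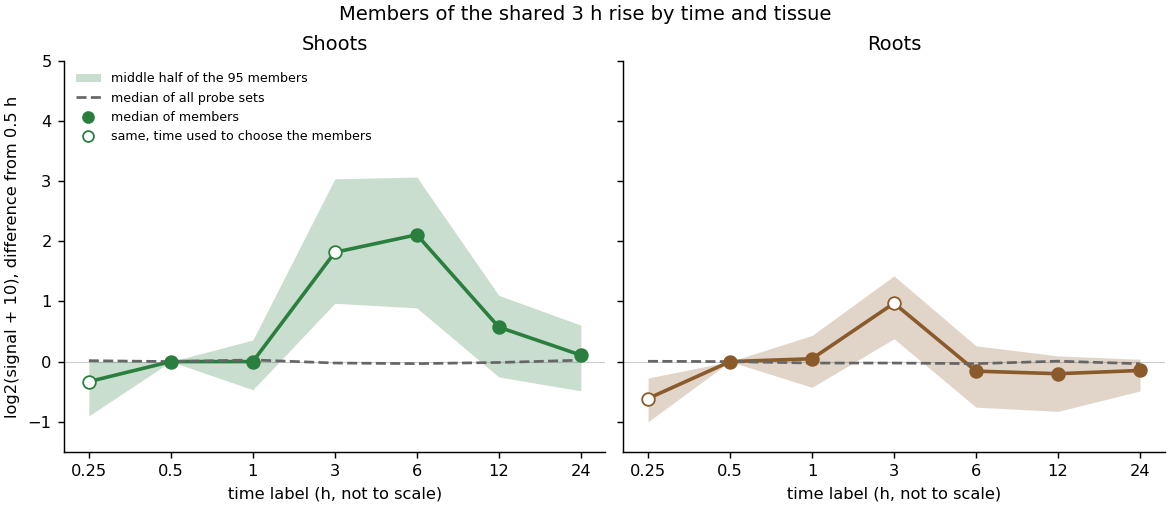
Difference of the members' mean log2(signal + 10) from its 0.5 h value (vertical axis, log2) against time in shoots and roots (horizontal axis, hours, not to scale), as the member median (line and points, open at the times the rule used), the range between the member quartiles (shaded) and the median of all probe sets (dashed). The shoot median stood at 1.82 at 3 h and 2.11 at 6 h, and the root median at 0.97 at 3 h and -0.16 at 6 h.

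In shoots the members were still high at 6 h. Against 0.5 h, 76 of 95 members were higher and 12 lower, against 22.1% and 21.7% of all 22746 probe sets, and the 88 called in all compare with 43.8%. Of the 76, 68 were higher by at least 1 on the log2 scale, a count that was not made over all probe sets. The median member difference was 2.11 and that of all probe sets -0.03. Between 0.5 h and 6 h the summed shoot markers went from 16898 and 18884 to 12147 and 13384 in shoots, and the root markers from 585 and 1488 to 554 and 576. Without replicate 1 at 0.5 h, 77 members were higher and 8 lower at 6 h, and without replicate 2 there were 73 and 10. In bulk tissue, a smaller number of cells of a type and less RNA per cell cannot be told apart. At 12 h, 49 of 95 members were higher and 14 lower than at 0.5 h (18.8%, 15.8% and, in either direction, 34.6% of all), with a median of 0.57. By 24 h the counts were 33 higher and 23 lower (9.94% and 8.14%), with a median of 0.11. At 1 h, 19 were higher and 16 lower (6.73% and 7.22%), with a median of 0.00. Between 6 h and 24 h directly, 79 members were higher at 6 h and 4 lower (19.5% and 20.0%), with a median of 2.25. Of the 5 times that the rule did not use, 6 h held the highest shoot mean for 72 members, which is 75.8% of them and 24.1% of all probe sets.

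In roots, more members were called lower than higher at 6, 12 and 24 h against 0.5 h. The 0.5 h level was itself above that at 0.25 h, a time the rule used. The median member signal in roots was 60.8 at 0.25 h and 112.2 at 0.5 h. It was 86.7, 76.0 and 78.8 at 6, 12 and 24 h, in each case above that at 0.25 h. At 6 h, 15 of 95 members were higher and 24 lower than at 0.5 h (7.92% and 9.13% of all probe sets), with a median of -0.16 against -0.03 over all. At 12 h the counts were 8 higher and 31 lower (5.72% and 6.78%), with a median of -0.20, and at 24 h they were 7 and 24 (6.19% and 7.56%), with a median of -0.15. The 1 h counts were 20 higher and 10 lower (1.98% and 2.82%), and 6 h against 24 h gave 19 higher and 12 lower (4.36% and 4.60%). The highest of the 5 unused times was 1 h for 31 members, 0.5 h for 24, 6 h for 22, 24 h for 12 and 12 h for 6. Over all probe sets the shares at these times, in the same order, were 13.3%, 23.6%, 17.4%, 19.6% and 26.2%. The root counts rest on few arrays. With a root array left out, the calls over all probe sets fell as well in each case given here. The 30 calls at 1 h (4.80% of all probe sets) became 17 and 16 without root replicate 1 or 2 at 0.5 h, and 16 and 18 without replicate 1 or 2 at 1 h. The 39 calls at 12 h (12.5%) became 24 without replicate 2 at 0.5 h and 25 without replicate 1 at 12 h. The 31 calls at 24 h (13.8%) became 17 and 18 without replicate 1 or 2 at 0.5 h and 15 without replicate 2 at 24 h. The 31 calls of 6 h against 24 h (8.96%) became 19 without replicate 1 at 6 h and 16 without replicate 1 at 24 h.

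**Figure D2:**
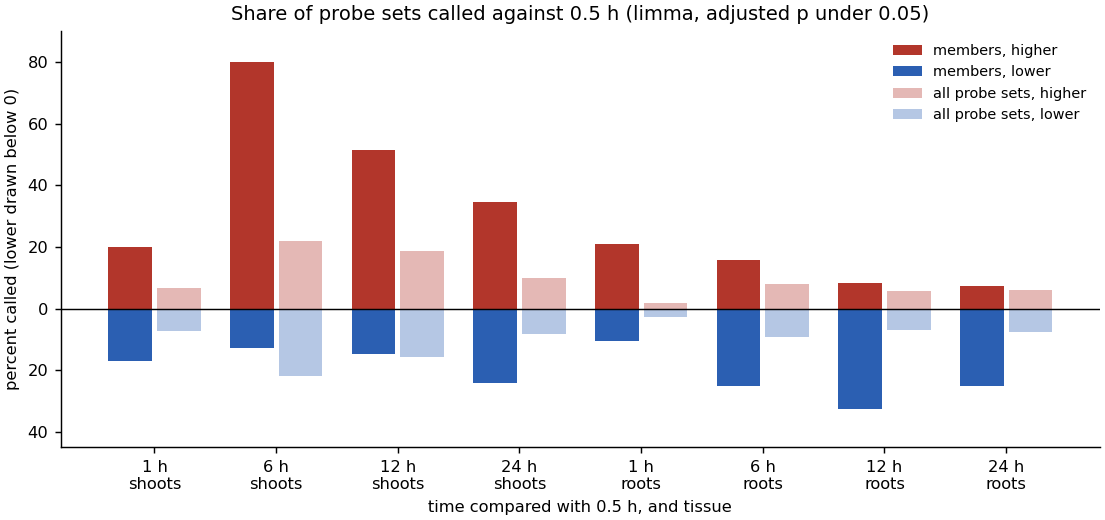
Percent of the 95 members (dark bars) and of all 22746 probe sets (pale bars) called higher (above 0) and lower (drawn below 0) at an adjusted p under 0.05 in each comparison of a time with 0.5 h (horizontal axis), in shoots and in roots. The tallest dark bar is that of shoots at 6 h, where 76 members were called higher.

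The difference between organs was tested directly, as the shoot change minus the root change. Both changes are from 0.5 h, which stood above 0.25 h by differing amounts. The median member difference of 0.25 h from 0.5 h was -0.33 in shoots and -0.61 in roots, at a time the rule used. At 6 h it was called positive for 77 members and negative for 3 (17.7% and 15.9% of all probe sets, 33.6% in either direction), with a median of 2.196 against 0.01 over all. At 12 h the counts were 52 and 5 (9.51% and 9.20%, 18.7% in either direction), and at 24 h 29 and 10 (5.66% and 5.48%, 11.1% in either direction). At 1 h they were 8 and 9 (3.33% and 3.59%), and these 17 calls (6.92% of all) became 10 without root replicate 2 at 0.5 h. Crossing the calls at 6 h, 15 members were higher in both organs (3.15% of all probe sets), 14 were higher in shoots and lower in roots (1.56%), 47 were higher in shoots with no call in roots (17.4%) and 8 were lower in both (4.05%). Of the others, 4 were lower in shoots with no call in roots (16.01%), 2 were lower in roots with no call in shoots (3.52%), and 5 had no call in either (49.5%). The shoot difference was the larger one for 86 of 95 members. That count was not made over all probe sets, where the median difference between organs was 0.01. Across the 95 members the 6 h differences in the organs had Pearson's r = 0.31 and Spearman's rho = 0.27, a description over probe sets read on the same arrays.

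**Figure D3:**
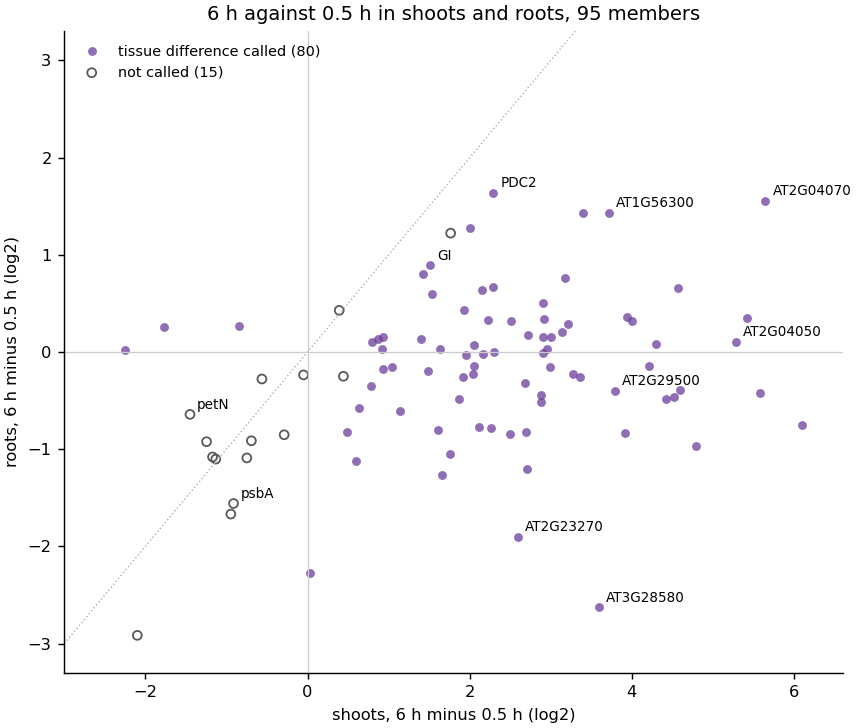
Log2 difference of 6 h from 0.5 h in shoots (horizontal axis) and roots (vertical axis), 1 point per member, with filled points where the difference between organs was called (80) and open points where it was not (15); the dotted line marks equal change. Most points lie to the right of the line, and AT3G28580 stands at 3.59 in shoots and -2.62 in roots.

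Among the members named here, ordered by what their products do, the efflux carriers AT2G04050 and AT2G04070 rose by 5.28 and 5.65 log2 units in shoots at 6 h. Both belong to the MATE family, which exports organic compounds across membranes, and 4 protein-coding genes lie between them on chromosome 2 in the TAIR10.1 assembly. They were the only 2 of a list of 10 genes of the response to mitochondrial dysfunction that were matched to a probe set here. That list was made without the names that the rule left out. AT2G04050 read 1.59 and 2.90 at 0.25 h, 14.3 and 10.9 at 0.5 h and 9.52 and 5.18 at 1 h in shoots. AT2G04050 then read 1153 and 948 at 3 h, 876 and 862 at 6 h, 52.5 and 77.1 at 12 h and 27.7 and 28.1 at 24 h. The 3 h and 6 h arrays lay far above all others in shoots. Root arrays of AT2G04050 read 8.55 and 6.17 at 0.25 h, 16.3 and 19.9 at 0.5 h and 15.5 and 13.6 at 1 h. AT2G04050 went on in roots with 203 and 240.3 at 3 h, 19.4 and 20.9 at 6 h, 7.04 and 10.4 at 12 h and 3.56 and 5.90 at 24 h. Here the 3 h arrays alone stood out. AT2G04070 read 15.6 and 11.1 at 0.25 h, 13.1 and 6.14 at 0.5 h and 41.7 and 34.0 at 1 h in shoots. AT2G04070 then read 1041 and 985 at 3 h, 981 and 935 at 6 h, 59.1 and 67.3 at 12 h and 40.04 and 42.6 at 24 h. Its 3 h and 6 h arrays were again the highest in shoots. Root arrays of AT2G04070 read 23.4 and 12.2 at 0.25 h, 16.6 and 20.9 at 0.5 h and 28.6 and 25.4 at 1 h. AT2G04070 went on in roots with 225 and 236 at 3 h, 90.6 and 61.0 at 6 h, 22.9 and 21.5 at 12 h and 19.0 and 8.20 at 24 h. The 3 h arrays were the highest here, followed by those at 6 h. At 6 h against 0.5 h in shoots the log2 difference was 5.28 ± 0.16 (SE, adjusted p = 1.12e-15) for AT2G04050 and 5.65 ± 0.21 (SE, adjusted p = 1.19e-14) for AT2G04070. In roots AT2G04070 differed by 1.56 ± 0.21 (SE, adjusted p = 1.61e-05), and AT2G04050 by 0.10 ± 0.16 (SE, adjusted p = 0.752). The difference between organs at 6 h was 5.18 ± 0.23 (SE, adjusted p = 3.87e-12) for AT2G04050 and 4.09 ± 0.30 (SE, adjusted p = 1.32e-09) for AT2G04070. Both were still above 0.5 h in shoots at 24 h, by 0.75 (adjusted p = 0.00206) and 1.41 (adjusted p = 4.27e-05), and AT2G04050 was below it in roots, by -0.93 (adjusted p = 0.000354).

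The annotation holds 4 members that encode chaperones or proteins with a chaperone domain. AT2G29500 is a small heat shock protein, which holds unfolding proteins in a soluble state, and 1 further probe set, AT1G59860;AT1G07400, matches both of these related small heat shock genes and cannot tell them apart. AT1G56300 and AT5G03030 encode proteins with a DnaJ domain, the part of a co-chaperone that activates Hsp70. AT2G29500 read 20.5 and 11.2 at 0.25 h, 25.4 and 15.8 at 0.5 h and 9.46 and 4.60 at 1 h in shoots. AT2G29500 then read 148 and 139 at 3 h, 417 and 397 at 6 h, 56.7 and 64.8 at 12 h and 10.6 and 21.7 at 24 h. The 6 h arrays were the highest in shoots and overlapped with no other time. Root arrays of AT2G29500 read 17.0 and 22.3 at 0.25 h, 45.2 and 41.2 at 0.5 h and 31.4 and 27.4 at 1 h. AT2G29500 went on in roots with 99.8 and 134 at 3 h, 39.4 and 23.0 at 6 h, 17.3 and 31.0 at 12 h and 47.2 and 45.6 at 24 h. Its 3 h arrays were the highest in roots. Its shoot difference at 6 h was 3.79 ± 0.24 (SE, adjusted p = 2.40e-11), its root difference -0.40 ± 0.24 (SE, adjusted p = 0.290) and the difference between organs 4.18 ± 0.33 (SE, adjusted p = 4.95e-09). AT1G56300 read 9.84 and 12.5 at 0.25 h, 32.7 and 16.6 at 0.5 h and 76.8 and 81.5 at 1 h in shoots. AT1G56300 then read 118 and 118 at 3 h, 439 and 425 at 6 h, 208 and 199 at 12 h and 16.2 and 25.01 at 24 h. Shoot levels were highest at 6 h, then at 12 h. Root arrays of AT1G56300 read 37.8 and 27.3 at 0.25 h, 40.4 and 44.8 at 0.5 h and 41.9 and 45.0 at 1 h. AT1G56300 went on in roots with 154 and 189 at 3 h, 135 and 129 at 6 h, 64.4 and 65.7 at 12 h and 35.7 and 39.5 at 24 h. Root levels were highest at 3 h, then at 6 h. It was above 0.5 h in shoots at 1 h by 1.40 ± 0.17 (SE, adjusted p = 4.93e-06), at 6 h by 3.71 ± 0.17 (SE, adjusted p = 1.92e-13) and at 12 h by 2.66 ± 0.17 (SE, adjusted p = 3.51e-11), and in roots at 6 h by 1.43 ± 0.17 (SE, adjusted p = 2.78e-06). The probe set of AT1G59860;AT1G07400 was higher in shoots at 6 h by 2.71 ± 0.22 (SE, adjusted p = 1.72e-09) and lower in roots, with a difference of -1.21 ± 0.22 (SE, adjusted p = 0.000580), with a difference between organs of 3.92 ± 0.32 (SE, adjusted p = 5.55e-09). AT5G03030 was higher by 1.40 ± 0.10 (SE, adjusted p = 4.08e-10) in shoots and differed by 0.13 ± 0.10 (SE, adjusted p = 0.456) in roots.

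AT2G29500 belonged to a list of 15 heat shock and proteotoxic response genes, of which 5 were measured under a single-gene probe set, and the list and its members were chosen with results of these arrays known. In shoots at 6 h 4 of the 5 were higher and 1 lower than at 0.5 h (22.1% and 21.7% of all probe sets), with a median of 0.84. In roots 1 was lower (9.13% of all) and the others were not called, with a median of -0.40. The 4 that are not members are AT5G48570, a peptidyl-prolyl isomerase of the FKBP type, and the small heat shock proteins AT5G37670, AT1G53540 and AT1G54050. Their shoot differences at 6 h were 2.11 (adjusted p = 8.43e-10), 0.84 (adjusted p = 0.000741), 0.68 (adjusted p = 0.0223) and -0.61 (adjusted p = 0.000826) in that order. A list of 16 unfolded protein response genes, which answer misfolded protein in the endoplasmic reticulum, had 5 measured under a single-gene probe set. None of these was a member. In shoots 4 of these were higher at 6 h (22.1% of all, median 1.24), in roots 3 were lower (9.13%, median -0.43), and the others were not called. ATERDJ3B, a co-chaperone of the endoplasmic reticulum, differed by 1.79 (adjusted p = 1.13e-10) in shoots and -0.10 (adjusted p = 0.676) in roots. CRT1b, a calreticulin, differed by 1.24 (adjusted p = 3.70e-08) and -0.43 (adjusted p = 0.0196), and BZIP28, a transcription factor of the response, by 0.80 (adjusted p = 7.28e-08) and 0.03 (adjusted p = 0.869).

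Among the annotated members, both of those in central carbon metabolism act on pyruvate. The 58 members with no gene name could not be placed. PDC2 is a pyruvate decarboxylase, the first enzyme of ethanol fermentation, and AT5G56350 a pyruvate kinase, which makes pyruvate in glycolysis. PDC2 read 52.3 and 40.3 at 0.25 h, 108 and 101 at 0.5 h and 171 and 133 at 1 h in shoots. PDC2 then read 154 and 137 at 3 h, 562 and 537 at 6 h, 445 and 467 at 12 h and 118 and 127 at 24 h. The shoot arrays at 6 h and 12 h lay above all others without overlap. Root arrays of PDC2 read 163 and 169 at 0.25 h, 179.7 and 162 at 0.5 h and 342 and 317 at 1 h. PDC2 went on in roots with 484 and 495 at 3 h, 539 and 566 at 6 h, 535 and 492 at 12 h and 147 and 151 at 24 h. The root arrays at 6 h and 12 h lay above those at 0.25, 0.5, 1 and 24 h. Those at 6 h also lay above those at 3 h, with which the 12 h arrays overlapped. The difference from 0.5 h was 2.29 ± 0.11 (SE, adjusted p = 3.53e-13) at 6 h and 2.03 ± 0.11 (SE, adjusted p = 2.03e-12) at 12 h in shoots, and 1.64 ± 0.11 (SE, adjusted p = 5.44e-10) and 1.53 ± 0.11 (SE, adjusted p = 1.05e-09) in roots. By 24 h it was 0.21 (adjusted p = 0.209) in shoots and -0.18 (adjusted p = 0.303) in roots. PDC2 was also called higher at 1 h in both organs, in roots by 0.91 (adjusted p = 8.30e-06). The shoot call was lost without shoot replicate 1 at 1 h, where the difference was 0.32. AT5G56350 read 170.1 and 114 at 0.25 h, 137 and 155 at 0.5 h and 148 and 196 at 1 h in shoots. AT5G56350 then read 1148 and 1039.5 at 3 h, 1162 and 1157 at 6 h, 361 and 415 at 12 h and 299 and 251 at 24 h. Shoot levels were highest at 6 h, with both arrays above both of those at 3 h, which came next. Root arrays of AT5G56350 read 378 and 376 at 0.25 h, 459.8 and 486 at 0.5 h and 519.9 and 543 at 1 h. AT5G56350 went on in roots with 855 and 867 at 3 h, 479 and 461 at 6 h, 443 and 474 at 12 h and 446 and 444 at 24 h. The 3 h arrays were the highest in roots. The shoot difference of AT5G56350 was 2.91 ± 0.13 (SE, adjusted p = 3.03e-13) at 6 h, 1.35 ± 0.13 (SE, adjusted p = 5.64e-08) at 12 h and 0.86 ± 0.13 (SE, adjusted p = 7.82e-05) at 24 h. The root difference at 6 h was -0.01 ± 0.13 (SE, adjusted p = 0.981), and the difference between organs 2.92 ± 0.19 (SE, adjusted p = 3.61e-10).

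AT3G28580 and AT2G18190 encode AAA-type ATPases, a class of proteins that use ATP to remodel other proteins. AT3G28580 read 17.7 and 0.372 at 0.25 h, 5.16 and 2.45 at 0.5 h and 23.2 and 18.2 at 1 h in shoots. AT3G28580 then read 374 and 315 at 3 h, 132 and 182 at 6 h, 11.9 and 13.9 at 12 h and 19.4 and 19.0 at 24 h. The shoot arrays at 3 h and 6 h were the highest of that organ. Root arrays of AT3G28580 read 32.7 and 39.99 at 0.25 h, 133 and 132 at 0.5 h and 94.7 and 91.9 at 1 h. AT3G28580 went on in roots with 89.4 and 93.7 at 3 h, 12.9 and 13.2 at 6 h, 25.5 and 23.2 at 12 h and 30.4 and 20.7 at 24 h. The root arrays at 6 h were the lowest of theirs. At 6 h it was higher in shoots by 3.59 ± 0.27 (SE, adjusted p = 3.46e-10) and lower in roots, with a difference of -2.62 ± 0.27 (SE, adjusted p = 3.56e-07), and the difference between organs, 6.21 ± 0.38 (SE, adjusted p = 1.20e-10), was the largest among the members that match 1 gene. It stayed lower in roots at 12 h, with a difference of -2.05 ± 0.27 (SE, adjusted p = 1.14e-05), and at 24 h, by -2.01 ± 0.27 (SE, adjusted p = 1.54e-05). At 24 h in shoots it was higher by 1.09 ± 0.27 (SE, adjusted p = 0.00570), a call lost without shoot replicate 2 at 0.5 h (adjusted p = 0.0558). The difference between organs was 1.62 (adjusted p = 0.00925) at 1 h, 2.79 (adjusted p = 1.33e-05) at 12 h and 3.10 (adjusted p = 9.18e-06) at 24 h, and the first of these was not called with a pseudocount of 1 (2.73, adjusted p = 0.130). AT2G18190 read 15.7 and 12.8 at 0.25 h, 16.4 and 14.1 at 0.5 h and 13.9 and 18.2 at 1 h in shoots. AT2G18190 then read 186 and 152 at 3 h, 239.6 and 230.1 at 6 h, 50.1 and 47.0 at 12 h and 50.8 and 48.1 at 24 h. Shoot levels were highest at 6 h, and at 12 h and 24 h they were still above those at 0.25, 0.5 and 1 h. Root arrays of AT2G18190 read 15.8 and 9.16 at 0.25 h, 24.6 and 19.8 at 0.5 h and 31.9 and 26.8 at 1 h. AT2G18190 went on in roots with 63.5 and 62.4 at 3 h, 16.2 and 19.1 at 6 h, 24.97 and 28.0 at 12 h and 12.1 and 12.96 at 24 h. Its 3 h arrays were the highest root arrays. In shoots it was above 0.5 h by 3.28 ± 0.14 (SE, adjusted p = 9.37e-14) at 6 h, 1.21 ± 0.14 (SE, adjusted p = 4.96e-07) at 12 h and 1.23 ± 0.14 (SE, adjusted p = 1.34e-06) at 24 h. In roots it differed by -0.22 ± 0.14 (SE, adjusted p = 0.329) at 6 h, and the difference between organs was 3.50 ± 0.20 (SE, adjusted p = 5.66e-11) at 6 h and 1.75 ± 0.20 (SE, adjusted p = 4.46e-06) at 24 h.

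Enzymes that modify small molecules were matched by 5 annotated probe sets. FMO is a flavin monooxygenase, AT5G43440 a member of the 2-oxoglutarate-dependent dioxygenases, AT5G44390 a berberine-bridge-like oxidase, AT5G01210 an acyltransferase of the HXXXD type, and 1 probe set, AT4G27570;AT4G27560, matches a pair of UDP-glycosyltransferases together. AT5G43440 lies next to AT5G43450, 1 of the left-out names, with no protein-coding gene between them. In shoots at 6 h FMO was higher by 2.05 ± 0.12 (SE, adjusted p = 1.23e-11), AT5G43440 by 2.15 ± 0.16 (SE, adjusted p = 2.79e-10) and AT4G27570;AT4G27560 by 1.61 ± 0.24 (SE, adjusted p = 1.37e-05). In roots at 6 h FMO differed by -0.15 ± 0.12 (SE, adjusted p = 0.474). AT4G27570;AT4G27560 was lower there, with a difference of -0.80 ± 0.24 (SE, adjusted p = 0.0273), a call lost without either root array at 0.5 h or at 6 h (adjusted p from 0.0752 to 0.166) and with a pseudocount of 1 (0.0567). AT5G43440 was higher there by 0.64 ± 0.16 (SE, adjusted p = 0.00656), a call lost without root replicate 1 at 0.5 h (adjusted p = 0.0844). AT5G01210 read 98.7 and 64.5 at 0.25 h, 78.3 and 76.4 at 0.5 h and 74.9 and 74.4 at 1 h in shoots. AT5G01210 then read 208 and 228 at 3 h, 278 and 296 at 6 h, 72.2 and 85.6 at 12 h and 54.2 and 46.4 at 24 h. The 6 h arrays were the highest shoot arrays. Root arrays of AT5G01210 read 173 and 147 at 0.25 h, 127 and 144 at 0.5 h and 100.2 and 91.7 at 1 h. AT5G01210 went on in roots with 395 and 564 at 3 h, 339 and 319 at 6 h, 212 and 189 at 12 h and 266 and 244 at 24 h. The 3 h arrays were the highest root arrays, followed by those at 6 h. At 6 h it was higher by 1.76 ± 0.15 (SE, adjusted p = 3.56e-09) in shoots and 1.22 ± 0.15 (SE, adjusted p = 6.72e-06) in roots, and the difference between organs was 0.54 ± 0.22 (SE, adjusted p = 0.0582). At 24 h it was above 0.5 h in roots by 0.87 ± 0.15 (SE, adjusted p = 0.000416) and the difference between organs was -1.40 ± 0.22 (SE, adjusted p = 0.000148). In roots at 12 h it differed by 0.54 ± 0.15 (SE, adjusted p = 0.0227), a call lost without root replicate 1 at 0.5 h (adjusted p = 0.168), without root replicate 2 at 0.5 h (adjusted p = 0.0554) and without root replicate 1 at 12 h (adjusted p = 0.181). AT5G44390 was lower in roots at 6 h, with a difference of -0.85 ± 0.25 (SE, adjusted p = 0.0193). That call was lost without root replicate 1 (adjusted p = 0.127) or 2 (0.0584) at 0.5 h, without root replicate 2 at 6 h (0.281) and with quantile normalization of all arrays (0.0526). In shoots AT5G44390 was not called at 6 h, with a difference of -0.29 (adjusted p = 0.384), and was lower at 12 h, with a difference of -1.34 ± 0.25 (SE, adjusted p = 0.000159).

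AT4G30650, KIN1 and KIN2 are known from cold and dehydration. AT4G30650 encodes a small hydrophobic membrane protein of the kind induced by low temperature and salt, and the probe set of the KIN2 and KIN1 genes cannot tell them apart. AT4G30650 read 13.3 and 18.2 at 0.25 h, 21.6 and 25.3 at 0.5 h and 36.2 and 29.2 at 1 h in shoots. AT4G30650 then read 48.5 and 36.1 at 3 h, 247 and 223 at 6 h, 278 and 293 at 12 h and 20.001 and 14.5 at 24 h. The shoot arrays at 6 h and 12 h were the highest, without overlap with other times. Root arrays of AT4G30650 read 58.0 and 76.1 at 0.25 h, 174 and 117 at 0.5 h and 114 and 119.8 at 1 h. AT4G30650 went on in roots with 232 and 286 at 3 h, 117 and 90.3 at 6 h, 115 and 146 at 12 h and 55.7 and 59.1 at 24 h. The 3 h arrays were highest in roots and those at 24 h overlapped with those at 0.25 h. The shoot difference was 2.88 ± 0.18 (SE, adjusted p = 2.09e-11) at 6 h and 3.15 ± 0.18 (SE, adjusted p = 5.84e-12) at 12 h, and -0.30 (adjusted p = 0.286) at 24 h. In roots it was -0.44 (adjusted p = 0.0997) at 6 h and -0.13 (adjusted p = 0.743) at 12 h, and the difference between organs at 12 h was 3.28 ± 0.25 (SE, adjusted p = 6.76e-09). At 24 h AT4G30650 was lower in roots, with a difference of -1.18 ± 0.18 (SE, adjusted p = 7.42e-05). The probe set of KIN2;KIN1 was higher in shoots at 1 h by 1.71 ± 0.19 (SE, adjusted p = 2.88e-06) and at 6 h by 1.49 ± 0.19 (SE, adjusted p = 1.56e-06). It was also higher in roots at 1 h, by 0.78 ± 0.19 (SE, adjusted p = 0.0190). That root call was lost without any 1 of the root arrays at 0.5 h or 1 h. In roots at 12 h it was lower, with a difference of -1.18 ± 0.19 (SE, adjusted p = 0.000235). In shoots at 24 h it was lower, with a difference of -0.79 ± 0.19 (SE, adjusted p = 0.00619). This last call was lost without shoot replicate 2 at 24 h.

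Of the members tied to light and the clock, GI is a clock protein that also acts in flowering and AT2G47890 is a B-box zinc finger protein. GI read 35.6 and 31.9 at 0.25 h, 72.2 and 71.8 at 0.5 h and 214 and 236 at 1 h in shoots. GI then read 96.5 and 96.7 at 3 h, 222 and 224 at 6 h, 73.9 and 86.2 at 12 h and 64.5 and 67.5 at 24 h. Its shoot arrays at 1 h and 6 h lay above those at 3 h, so the 3 h arrays that brought it into the set were not its highest. Root arrays of GI read 164 and 142 at 0.25 h, 169.5 and 162 at 0.5 h and 367 and 357 at 1 h. GI went on in roots with 378 and 401 at 3 h, 308 and 326 at 6 h, 117 and 112 at 12 h and 198 and 214 at 24 h. In roots the 3 h arrays were its highest, followed by those at 1 h. GI was above 0.5 h at 1 h by 1.52 ± 0.09 (SE, adjusted p = 3.65e-10) in shoots and 1.08 ± 0.09 (SE, adjusted p = 1.09e-07) in roots, and at 6 h by 1.51 ± 0.09 (SE, adjusted p = 9.88e-12) and 0.89 ± 0.09 (SE, adjusted p = 2.38e-07). At 12 h, late in the light period, it differed by 0.13 (adjusted p = 0.282) in shoots and was lower in roots, with a difference of -0.49 ± 0.09 (SE, adjusted p = 0.000507). At 24 h it differed by -0.11 (adjusted p = 0.458) in shoots and by 0.30 (adjusted p = 0.0260) in roots, where the call was lost without root replicate 1 at 0.5 h (adjusted p = 0.0694), without root replicate 2 at 0.5 h (adjusted p = 0.166) and without root replicate 2 at 24 h (adjusted p = 0.225). AT2G47890 was higher in shoots at 6 h by 2.28 ± 0.19 (SE, adjusted p = 1.57e-09) and at 12 h by 1.15 ± 0.19 (SE, adjusted p = 4.03e-05), and it differed by -0.28 (adjusted p = 0.349) at 24 h.

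ChiC is a class V chitinase and AT3G16530 a legume-type lectin, and both kinds of protein are known from defence. ChiC was higher in shoots at 6 h by 1.14 ± 0.21 (SE, adjusted p = 0.000121) and lower in roots at 12 h, with a difference of -1.27 ± 0.21 (SE, adjusted p = 0.000248). AT3G16530 read 699.9 and 812 at 0.25 h, 1656 and 1439 at 0.5 h and 1095 and 1122 at 1 h in shoots. AT3G16530 then read 2022 and 2453 at 3 h, 2507 and 2203 at 6 h, 1369.8 and 1100.2 at 12 h and 446 and 505 at 24 h. The shoot arrays at 24 h were the lowest. Root arrays of AT3G16530 read 44.6 and 33.0 at 0.25 h, 135 and 126 at 0.5 h and 71.3 and 68.2 at 1 h. AT3G16530 went on in roots with 74.3 and 151 at 3 h, 52.1 and 56.9 at 6 h, 48.5 and 84.9 at 12 h and 152 and 107 at 24 h. Root levels at 3 h overlapped with those at 0.5, 12 and 24 h. At 24 h in shoots the difference from 0.5 h was -1.68 ± 0.24 (SE, adjusted p = 4.05e-05), with -0.03 ± 0.24 (SE, adjusted p = 0.975) in roots and a difference between organs of -1.65 ± 0.34 (SE, adjusted p = 0.00271). At 6 h in roots it was lower, with a difference of -1.12 ± 0.24 (SE, adjusted p = 0.00253). Its shoot difference at 6 h was 0.60 ± 0.24 (SE, adjusted p = 0.0473), a call lost without shoot replicate 1 at 0.5 h (adjusted p = 0.0685), without shoot replicate 2 at 0.5 h (adjusted p = 0.200), without shoot replicate 1 at 6 h (adjusted p = 0.210) and without shoot replicate 2 at 6 h (adjusted p = 0.0767), and also with a pseudocount of 1 (adjusted p = 0.0787), without the trended robust variance (0.0565) and with the replicate block (0.0532).

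AT2G23270 and AT3G45730, for which no role is given here, had patterns of their own. AT2G23270 read 17.4 and 5.98 at 0.25 h, 14.9 and 9.33 at 0.5 h and 21.3 and 26.4 at 1 h in shoots. AT2G23270 then read 1048 and 856 at 3 h, 108 and 139 at 6 h, 5.73 and 7.06 at 12 h and 15.9 and 11.6 at 24 h. In shoots the 3 h arrays were the highest by a wide margin and the 12 h arrays among the lowest. Root arrays of AT2G23270 read 78.1 and 63.5 at 0.25 h, 256 and 241 at 0.5 h and 75.2 and 69.1 at 1 h. AT2G23270 went on in roots with 268 and 338 at 3 h, 50.5 and 68.9 at 6 h, 27.0 and 22.6 at 12 h and 252 and 179 at 24 h. In roots the levels at 0.5, 3 and 24 h lay above those at 0.25, 1, 6 and 12 h. It was higher in shoots at 6 h by 2.59 ± 0.21 (SE, adjusted p = 1.70e-09) and lower in roots at 1 h, with a difference of -1.65 ± 0.21 (SE, adjusted p = 2.66e-05), at 6 h by -1.90 ± 0.21 (SE, adjusted p = 1.63e-06) and at 12 h by -2.89 ± 0.21 (SE, adjusted p = 2.34e-09). The difference between organs was 2.27 ± 0.30 (SE, adjusted p = 3.48e-05) at 1 h and 4.50 ± 0.30 (SE, adjusted p = 4.77e-10) at 6 h. AT3G45730 read 42.7 and 42.9 at 0.25 h, 142 and 90.1 at 0.5 h and 66.3 and 48.7 at 1 h in shoots. AT3G45730 then read 257 and 208 at 3 h, 146 and 158 at 6 h, 29.4 and 33.8 at 12 h and 46.8 and 61.2 at 24 h. The 3 h shoot arrays were the highest and the 12 h arrays the lowest. Root arrays of AT3G45730 read 45.5 and 54.7 at 0.25 h, 54.3 and 44.0 at 0.5 h and 60.3 and 63.7 at 1 h. AT3G45730 went on in roots with 214 and 210.5 at 3 h, 70.7 and 67.9 at 6 h, 43.9 and 48.5 at 12 h and 48.9 and 51.5 at 24 h. The 3 h root arrays stood far above the rest. It was not called at 6 h, with a difference of 0.39 (adjusted p = 0.0564) in shoots and 0.43 (adjusted p = 0.0760) in roots. It was below 0.5 h in shoots at 1 h by -0.88 ± 0.16 (SE, adjusted p = 0.000615) and at 12 h by -1.57 ± 0.16 (SE, adjusted p = 9.09e-08). The difference between organs was -1.17 ± 0.23 (SE, adjusted p = 0.00228) at 1 h and -1.503 ± 0.23 (SE, adjusted p = 5.82e-05) at 12 h.

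The other annotated members were higher in shoots at 6 h. AT1G71530, a protein kinase, was higher by 3.17 ± 0.15 (SE, adjusted p = 3.47e-13) in shoots and 0.76 ± 0.15 (SE, adjusted p = 0.00103) in roots. AT2G43160, a protein with the ENTH domain of clathrin adaptors, was higher in shoots by 0.92 ± 0.21 (SE, adjusted p = 0.000907). Of members with no role given here, the shoot difference was 3.21 (adjusted p = 1.00e-13) for AT1G03660, 2.95 (adjusted p = 4.45e-09) for AT1G24095, 2.92 (adjusted p = 3.14e-12) for AT5G40690, 2.01 (adjusted p = 3.09e-10) for AT2G38465, 1.54 (adjusted p = 4.10e-07) for AT4G16680 and 1.43 (adjusted p = 9.24e-08) for AT3G54520. AT2G38465 was also higher in roots, by 1.28 ± 0.15 (SE, adjusted p = 2.41e-06) at 6 h and 1.13 ± 0.15 (SE, adjusted p = 1.31e-05) at 12 h. AT3G54520 was close to the bottom of the scale at most times. AT3G54520 read 0.467 and 0.240 at 0.25 h, 0.539 and 0.0407 at 0.5 h and 0.479 and 0.392 at 1 h in shoots. AT3G54520 then read 25.8 and 18.8 at 3 h, 17.9 and 17.4 at 6 h, 0.1004 and 0.402 at 12 h and 0.347 and 0.397 at 24 h. The shoot arrays at 3 h and 6 h were the highest. Root arrays of AT3G54520 read 0.625 and 0.877 at 0.25 h, 3.73 and 0.424 at 0.5 h and 0.988 and 4.20 at 1 h. AT3G54520 went on in roots with 77.9 and 67.0 at 3 h, 10.8 and 10.9 at 6 h, 3.59 and 1.36 at 12 h and 0.434 and 1.68 at 24 h. In roots the 3 h arrays were the highest and the 6 h arrays next. Its root difference at 6 h was 0.80 ± 0.15 (SE, adjusted p = 0.000816).

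**Figure D4:**
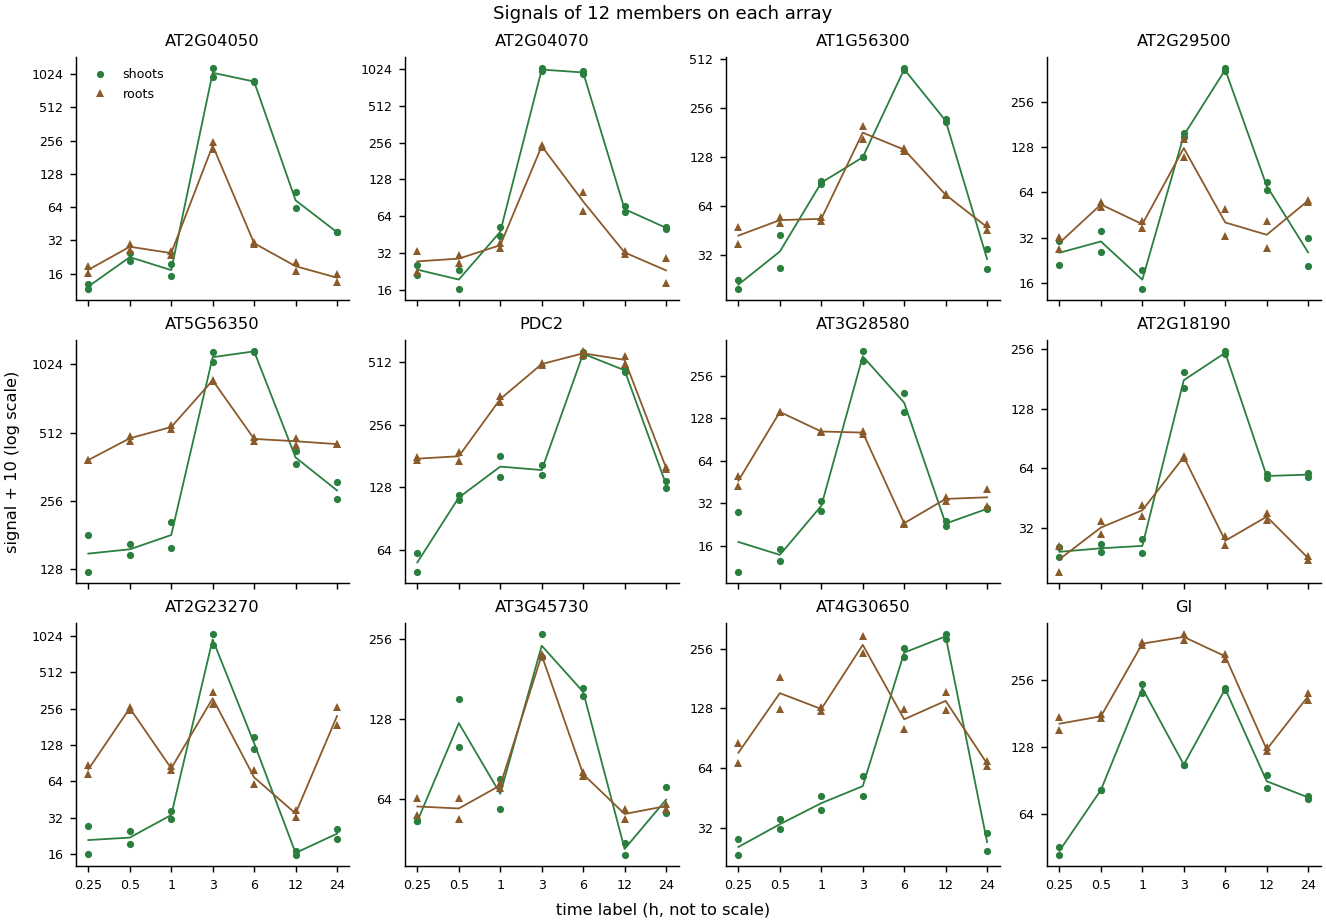
Signal + 10 (vertical axes, log scale) of 12 named members on each array against time (horizontal axes, hours, not to scale), with circles for shoots, triangles for roots and lines through the group means of log2 values. AT2G04050 was low again in roots at 6 h (signals 19.4 and 20.9) while its shoot arrays stayed at 876 and 862.

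Among the annotated members, 6 carry transcripts of the organelles or sequences like them, and this grouping was made after their values were seen. Plastid genes are psbA (the D1 protein of photosystem II), petN (a cytochrome b6f subunit) and ndhE and ndhF (subunits of the plastid NDH complex). The probe set of atp1 and AT2G07698 matches the mitochondrial ATP synthase alpha subunit and a nuclear locus, and AT2G07708 is a chromosome 2 locus. At 6 h all 6 were called lower than at 0.5 h in shoots (median -1.04) and 5 in roots (median -1.002), where 21.7% and 9.13% of all probe sets were, and none was higher in limma's test, nor at an unadjusted p under 0.05. The shoot calls of psbA, ndhF and the atp1 probe set and the root calls of ndhE and ndhF were each lost when 1 array was left out, atp1;AT2G07698 in shoots without shoot replicate 2 at 0.5 h (adjusted p = 0.0655) and ndhE in roots without root replicate 1 at 0.5 h (adjusted p = 0.240) and without root replicate 1 at 6 h (adjusted p = 0.328). The root difference of ndhF, -1.08 ± 0.33 (SE, adjusted p = 0.0302), was not called without root replicate 1 at 0.5 h (adjusted p = 0.190), without root replicate 2 at 0.5 h (adjusted p = 0.0584), without root replicate 1 at 6 h (adjusted p = 0.211) and without root replicate 2 at 6 h (adjusted p = 0.0589). Of the other 89 members, 76 were higher and 6 lower in shoots (22.1% and 21.7% of all probe sets), with a median of 2.22. No difference between organs was called for the 6 in limma's test at 1, 6, 12 or 24 h, while at an unadjusted p under 0.05 there were 2 at 1 h and 0 at the other times.

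psbA read 1255 and 1606 at 0.25 h, 4620.3 and 5052 at 0.5 h and 4484 and 6539.5 at 1 h in shoots. psbA then read 3567 and 3225 at 3 h, 2554 and 2569 at 6 h, 2215 and 2142 at 12 h and 1549.6 and 1565 at 24 h. In shoots the arrays at 0.25 h and at 3 h, which met the rule, both lay below those at 0.5 h. Root arrays of psbA read 58.1 and 44.0 at 0.25 h, 259 and 189.8 at 0.5 h and 132 and 70.9 at 1 h. psbA went on in roots with 137 and 148 at 3 h, 53.6 and 87.6 at 6 h, 81.9 and 118 at 12 h and 76.5 and 33.1 at 24 h. The same order held in roots. Against 0.5 h psbA was lower in shoots at 24 h, with a difference of -1.63 ± 0.30 (SE, adjusted p = 0.000727) and in roots at 6 h by -1.56 ± 0.30 (SE, adjusted p = 0.00125) and at 24 h by -1.93 ± 0.30 (SE, adjusted p = 0.000203). Its shoot difference at 6 h, -0.91 ± 0.30 (SE, adjusted p = 0.0182), was not called without shoot replicate 1 at 0.5 h (adjusted p = 0.0508), without shoot replicate 2 at 0.5 h (adjusted p = 0.0888), without shoot replicate 1 at 6 h (adjusted p = 0.0711) and without shoot replicate 2 at 6 h (adjusted p = 0.0663), nor with quantile normalization of all arrays (adjusted p = 0.186) or within each tissue (0.126). In roots at 1 h psbA differed by -1.12 ± 0.30 (SE, adjusted p = 0.0360), a call lost without root replicate 1 at 0.5 h (adjusted p = 0.265), without root replicate 2 at 0.5 h (adjusted p = 0.0705) and without root replicate 2 at 1 h (adjusted p = 0.476), and with a pseudocount of 1 (0.0646) or separate fits per tissue (0.125).

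petN read 91.3 and 172 at 0.25 h, 284 and 291 at 0.5 h and 134 and 143 at 1 h in shoots. petN then read 424 and 338 at 3 h, 97.1 and 100.5 at 6 h, 197 and 159.8 at 12 h and 167 and 129.9 at 24 h. The 3 h arrays were the highest in shoots. Root arrays of petN read 98.5 and 64.6 at 0.25 h, 89.8 and 72.0 at 0.5 h and 65.7 and 108 at 1 h. petN went on in roots with 172 and 232 at 3 h, 30.4 and 73.1 at 6 h, 50.5 and 102 at 12 h and 70.2 and 31.8 at 24 h. The 3 h arrays were also the highest in roots. It was lower in shoots at 6 h, with a difference of -1.45 ± 0.37 (SE, adjusted p = 0.00385), and in roots it differed by -0.64 ± 0.37 (SE, adjusted p = 0.285). ndhE was lower in shoots at 6 h, with a difference of -1.25 ± 0.29 (SE, adjusted p = 0.00169). ndhF differed there by -1.17 ± 0.33 (SE, adjusted p = 0.00682), a call lost without shoot replicate 1 at 0.5 h (adjusted p = 0.0812). At 1 h in shoots ndhF differed by -1.13 ± 0.33 (SE, adjusted p = 0.0273), a call lost without shoot replicate 1 at 0.5 h (adjusted p = 0.215) and without shoot replicate 2 at 1 h (adjusted p = 0.203), and with a pseudocount of 1 (0.117). AT2G07708 was lower at 6 h, with a difference of -0.69 ± 0.15 (SE, adjusted p = 0.000754) in shoots and -0.91 ± 0.15 (SE, adjusted p = 0.000225) in roots. The probe set of atp1;AT2G07698 was lower in roots at 6 h, with a difference of -1.09 ± 0.19 (SE, adjusted p = 0.000293). Over all 69 probe sets of plastid genes, none was higher at 6 h in either organ by limma's adjusted p or at an unadjusted p under 0.05, 61 were lower in shoots (21.7% of all probe sets, median -0.95) and 39 in roots (9.13%, median -0.67). At 3 h against 0.25 h, 8 of the 69 had reached the rise of 1 in shoots and 11 in roots, and 4 were members.

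**Figure D5:**
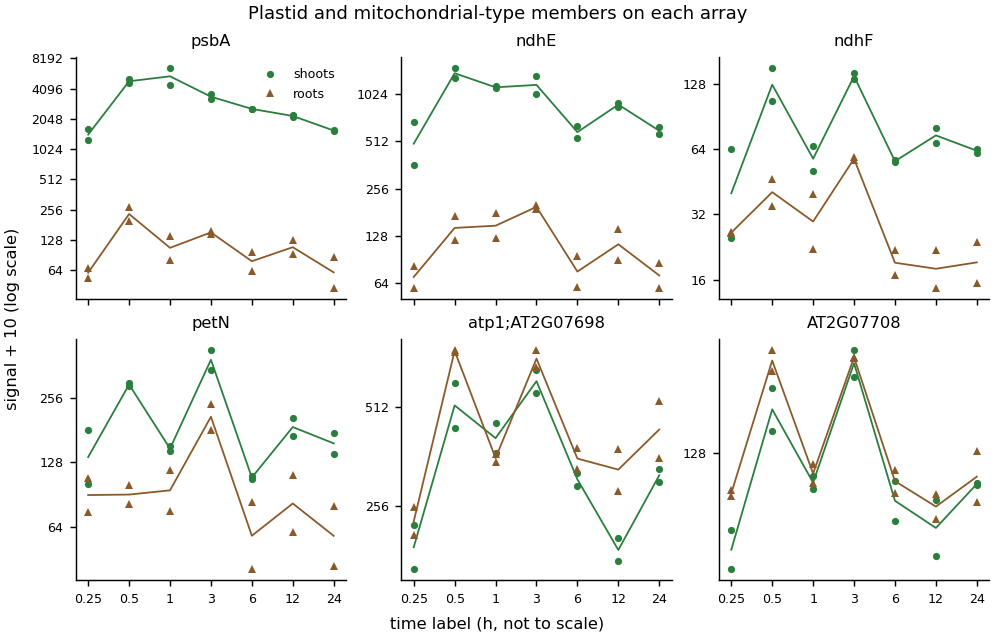
Signal + 10 (vertical axes, log scale) of the 6 plastid and mitochondrial-type members on each array against time (horizontal axes, hours, not to scale), with circles for shoots, triangles for roots and lines through the group means of log2 values. The 0.5 h means lie above the 0.25 h means in shoots for all 6, and the 6 h means lie below the 3 h means in both organs.

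The 58 members without a gene name were counted separately. Of all probe sets, 22.1% were called higher and 21.7% lower in shoots at 6 h, 7.92% and 9.13% in roots at 6 h, and 9.94% and 8.14% in shoots at 24 h. In shoots at 6 h 47 of them were higher and 6 lower than at 0.5 h, with a median of 2.19, beside 26 higher and 5 lower of the 33 that match 1 gene, with a median of 2.05. In roots at 6 h 4 of the 58 were higher and 13 lower (median -0.20), beside 11 and 8 of the 33 (median 0.03). At 24 h in shoots 25 of the 58 were higher and 13 lower (median 0.31), and 8 of the 33 were higher and 8 lower (median -0.12). The difference between organs at 6 h was called positive for 49 of the 58 and negative for 3 (17.7% and 15.9% of all).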

How the data were processed

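The arrays report total RNA labelled with biotin and hybridised to a platform with 22810 probe sets, of which 64 are array controls. The deposited values are linear signal intensities, 1 per probe set and array, and they were made with MAS5, per the submitters' processing notes. The settings of that step are not given in the sources used here. The 2% trimmed mean of each array was near the same value, so no further scaling was applied. Group means and tests used log2(signal + 10), and a fold on that scale understates the change of dim probe sets.

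The members and gene lists were chosen with earlier results of these data known. Groups came from the sample titles. limma 3.58.1 in R 4.3.3 was fitted to all 28 arrays and 22746 probe sets without a filter, with a trended, robust variance (lmFit, contrasts.fit and eBayes, 14 residual degrees of freedom), and p-values were adjusted by Benjamini-Hochberg over all probe sets in each comparison. A call is an adjusted p under 0.05. The fit was tested on simulated data. Named members match 1 gene and have the largest smaller-of-both rise at 3 h (10), the highest and lowest called differences of each comparison, or a place in 1 of the 23 lists. The other annotated members were named after their values were seen, with roles from general knowledge. Over 91 pairs of groups, the deviations of arrays with the same replicate number correlated between -0.22 and 0.22, with 6 above 0.1, so the numbers did not pair the samples. Gene names came from the platform's annotation, updated through RefSeq genes of TAIR10.1. Alternatives covered the pseudocount (1, the 25th percentile and the median of the signals), normalization, a filter on low signals, the variance model, separate fits per tissue, the replicate number as a block and leaving out each array. Tables were handled with pandas 2.3.3 and figures drawn with matplotlib 3.10.9.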

Additional observations from a re-analysis of the deposited data

Results flagged for a closer look

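The change from 0.5 h differed between shoots and roots by limma's test of the difference itself for 17 members at 1 h, 80 at 6 h, 57 at 12 h and 39 at 24 h, where 6.92%, 33.6%, 18.7% and 11.1% of all probe sets were called. The 17 at 1 h became 10 without root replicate 2 at 0.5 h. Among the genes named by the rule, AT3G28580 differed at all of these times, by 1.62 (adjusted p = 0.00925) at 1 h, 6.21 (adjusted p = 1.20e-10) at 6 h, 2.79 (adjusted p = 1.33e-05) at 12 h and 3.10 (adjusted p = 9.18e-06) at 24 h, where a positive value means that the shoot change was the higher one. With a pseudocount of 1 its 1 h value was 2.73 with an adjusted p of 0.130. AT2G23270 differed by 2.27 (adjusted p = 3.48e-05) at 1 h, AT2G04050 by 5.18 (adjusted p = 3.87e-12) at 6 h and AT4G30650 by 3.28 (adjusted p = 6.76e-09) at 12 h. AT2G18190 differed by 1.75 (adjusted p = 4.46e-06) at 24 h. The shoot change was the lower one for AT3G45730, with a difference of -1.17 (adjusted p = 0.00228) at 1 h and -1.503 (adjusted p = 5.82e-05) at 12 h, and at 24 h for AT3G16530, by -1.65 (adjusted p = 0.00271), and AT5G01210, by -1.40 (adjusted p = 0.000148).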

How the results depend on the processing

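Counts of members called were recomputed with 1 array left out at a time and under the other alternatives. With a root array left out, the calls over all probe sets also fell in every root comparison. With 1 array left out, in shoots 27 to 34 members were called at 1 h, 83 to 85 at 6 h, 57 to 63 at 12 h, 40 to 47 at 24 h and 81 to 83 for 6 h against 24 h. The ranges were, in roots, 16 to 18, 27 to 30, 24 to 36, 15 to 22 and 16 to 23, in that order, and the difference between organs was called for 10 to 18 at 1 h, 75 to 78 at 6 h, 46 to 55 at 12 h and 32 to 40 at 24 h. Over the other alternatives, the reported counts included, in shoots 29 to 36 members were called at 1 h, 77 to 90 at 6 h, 57 to 65 at 12 h, 42 to 58 at 24 h and 74 to 84 for 6 h against 24 h, in roots 21 to 38, 31 to 51, 32 to 49, 28 to 39 and 27 to 48, and the difference between organs for 12 to 22 at 1 h, 69 to 81 at 6 h, 54 to 60 at 12 h and 35 to 42 at 24 h. Of these 149 counts stayed within 1.5 times the reported one and 1 did not: separate fits per tissue gave 48 calls for 6 h against 24 h in roots, where 31 are reported. Over all probe sets the calls there went from 2039 to 3068. The replicate number as a block gave 87 calls in shoots and 39 in roots at 6 h, 28 in roots at 1 h and 80 differences between organs at 6 h, and it moved no count by over 1.5 times. For the annotated members, 265 of 518 values were called, 196 of these under every setting and 69 lost under at least 1, and none changed direction past the threshold. The cause of these losses was not tested. Where 1 array is left out, the smaller number of arrays and the values of that array cannot be told apart. Signals at or below the array median before 3 h limit what can be read of the dim members.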

Other observations

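Other lists of stress genes were counted beside the members, with 0 members in each. Only members that match 1 gene could be counted in a list. The 58 with no gene name and the 4 that match several genes could not. Of the 133 loci listed, 29 were measured. The 0 is thus partly set by the annotation. At 6 h against 0.5 h, the calls over the whole array came to 22.1% higher and 21.7% lower in shoots, and to 7.92% and 9.13% in roots. Of 10 probe sets of autophagy genes, which deliver cell contents to the vacuole, 5 were higher and 1 lower in shoots at 6 h against 0.5 h, and 4 higher in roots, with medians of 0.18 and 0.27. APG8A, 1 of the ATG8 proteins that coat the autophagosome, differed by 1.43 (adjusted p = 4.22e-11) in shoots and 0.55 (adjusted p = 0.000215) in roots, and ATG8D by 1.29 (adjusted p = 2.11e-09) and 0.88 (adjusted p = 5.39e-06). HYH, a light-signalling bZIP factor and the single measured gene of a UV-B photoreceptor list, was lower, with a difference of -2.60 (adjusted p = 1.08e-12) in shoots and -1.04 (adjusted p = 7.55e-06) in roots. OPCL1, an enzyme of jasmonate synthesis, differed by 0.58 (adjusted p = 0.000206) in shoots and -0.86 (adjusted p = 1.31e-05) in roots, and GRX480, a glutaredoxin, by 0.39 (adjusted p = 0.424) and -2.50 (adjusted p = 7.09e-05). These were the 2 measured genes of the jasmonate list. Of 4 glutathione and thiol genes, 2 were lower in each organ. GRX480 is on this list too and was 1 of the 2 lower in roots.

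Of 47 UDP-glycosyltransferases at 6 h against 0.5 h, 16 were higher and 11 lower in shoots (median 0.11), and 9 were lower in roots (median -0.08), beside the same shares over the whole array (22.1% and 21.7%, 7.92% and 9.13%). Of 14 glutathione transferases, 1 was higher and 7 lower in shoots and 1 and 6 in roots. UGT73B4, UGT73B5, UGT84A1 and GSTU25 are among the names left out by the rule, so the number of members in these families is not a result. The 26 cytochrome P450s gave 6 higher and 5 lower in shoots and 1 and 3 in roots. Among 6 WRKY factors 1 was higher and 4 lower in shoots and 3 were lower in roots, and among 7 calmodulin-like proteins and calcium-dependent kinases 1 was higher and 3 lower in shoots and 4 lower in roots. For 8 aldo-keto, aldehyde and alcohol dehydrogenases the counts were 5 higher and 3 lower in shoots and 2 and 1 in roots. Of 2 proteasome subunits 1 was higher in shoots. The single NAC factor and the single heat shock protein of the family search were not called at 6 h, and the single MYB factor was lower in shoots and higher in roots. No gene was measured under a single-gene probe set for 6 of the 23 lists.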
